A study of Mus musculus with 17 samples.

Results

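The 10 genes described here are Fabp9, Meig1, Crisp2, Spata4, Ly6k, Mtl5, 1700006A11Rik, Mroh4, 4922502D21Rik and 1700008K24Rik, out of 23980 RefSeq genes measured at each of 2 stages. They were listed by symbol, with results of these data known, as genes that come on around the pachytene stage of meiosis and are lower in mutant spermatocytes, and because they are abundant in a single newborn testis library. Differences between mutant and wild-type spermatocytes, and the height of that library, are the measured values by which the genes were selected. They are given as description, and calls counted in those comparisons are no test of the genes. The genes were selected on fold change at L/Z and on counts in that library. No pachytene sample was measured, so the timing in the name was not tested.

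Poly(A) RNA was sequenced from mice on a C57BL/6J background. The first set was leptotene/zygotene (L/Z) spermatocytes, cells in early meiotic prophase sorted by FACS at 3 to 4 weeks of age, with 2 libraries each of wild type (WT), Pld6 knockout (KO) and Dnmt3l KO. The second set was whole testes at postnatal day 0 (P0), with 2 WT, 4 Pld6 KO, 2 Dnmt3l KO and 3 Pld6/Dnmt3l double knockout (DKO) libraries. Pld6 encodes a mitochondrial protein needed to make piRNAs, Dnmt3l encodes a cofactor of de novo DNA methylation, and germ cells of both mutants are lost during meiotic prophase, so that the sorted mutant cells come from testes without later germ cells. Library sizes ran from 5194238 to 14578341 fragments at L/Z and from 9900346 to 23498968 at P0. Pld6 had 0 counts in both L/Z Pld6 KO libraries and 344 and 352 in WT, and Dnmt3l had 0 in both L/Z Dnmt3l KO libraries and 19 and 11 in WT. At P0, Dnmt3l had 2 counts and 1 count in the Dnmt3l KO libraries and 53 and 72 in WT.

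In meiotic prophase homologous chromosomes pair in zygotene and are fully synapsed in pachytene, when spermatocytes switch on a large set of genes, many of whose products are used only later, in spermatids and sperm. Transcription factors of the MYB and RFX families are known to drive part of that programme. At birth the germ cells of the mouse testis are prospermatogonia that have not entered meiosis, so genes of this kind are normally silent there.

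Several of the genes encode proteins of sperm. Fabp9 is a fatty acid-binding protein of the sperm head, on chromosome 3 (10193623 to 10197283, minus strand, GRCm38.p6 throughout). Meig1 is required for sperm formation (chromosome 2, 3409043 to 3422648, minus). Crisp2 is a cysteine-rich secretory protein of the acrosome and tail (chromosome 17, 40764734 to 40794146, minus), and Ly6k is a GPI-anchored protein needed for sperm to enter the oviduct (chromosome 15, 74796874 to 74799968, minus). Spata4 (chromosome 8, 54600781 to 54610098, plus) is a testis gene. Mtl5, now called Tesmin, encodes a CXC-domain protein of meiotic germ cells (chromosome 19, 3388857 to 3407823, plus).

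The remaining genes are less well known. 1700006A11Rik is protein-coding on chromosome 3 (124400990 to 124426039, minus), and Mroh4 encodes a protein with HEAT repeats on chromosome 15 (74606026 to 74636804, minus). 4922502D21Rik, now called Clec2m, encodes a C-type lectin domain protein on chromosome 6 (129322165 to 129331807, minus). 1700008K24Rik is a long non-coding RNA gene on chromosome 17 (49112264 to 49113533, minus). In the GENCODE annotation, Spata4, Ly6k and 1700006A11Rik overlap antisense genes, and Fabp9 overlaps a gene on its own strand. The authors counted RefSeq genes from stranded libraries. Whether their counting used the strand is not stated, so fragments in those overlaps may be shared between genes.

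Promoter windows of 230 bases, from 200 bases before the start of transcription to 30 bases from it, were found in RefSeq for 6 of the 10 genes. They were searched on both strands for AACGG, the core of the MYB motif (reverse complement CCGTT), which 13.8% of 32851 such windows hold, and for GTTGCNA, a short part of the RFX X-box, which 8.42% hold. Both motifs were chosen after the sequences had been seen. The windows of the 4 genes with a match beside their annotated start are shown 5′ to 3′ on the gene's strand, with matches in capitals.
Mtl5, chr19:3388657-3388886, plus strand: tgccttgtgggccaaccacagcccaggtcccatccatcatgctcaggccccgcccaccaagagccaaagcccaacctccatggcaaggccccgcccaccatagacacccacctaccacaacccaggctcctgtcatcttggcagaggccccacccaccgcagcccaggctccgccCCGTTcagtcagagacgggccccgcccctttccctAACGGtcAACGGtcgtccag
4922502D21Rik, chr6:129331752-129331981, minus strand: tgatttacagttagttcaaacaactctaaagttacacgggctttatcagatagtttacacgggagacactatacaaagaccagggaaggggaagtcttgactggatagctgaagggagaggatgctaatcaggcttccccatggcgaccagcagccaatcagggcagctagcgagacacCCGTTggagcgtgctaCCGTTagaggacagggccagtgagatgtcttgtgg
1700008K24Rik, chr17:49113504-49113733, minus strand: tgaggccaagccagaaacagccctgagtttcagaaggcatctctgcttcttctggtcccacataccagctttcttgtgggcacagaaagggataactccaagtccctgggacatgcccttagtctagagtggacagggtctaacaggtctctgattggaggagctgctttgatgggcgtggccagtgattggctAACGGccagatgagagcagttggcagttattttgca
Spata4, chr8:54600581-54600810, plus strand: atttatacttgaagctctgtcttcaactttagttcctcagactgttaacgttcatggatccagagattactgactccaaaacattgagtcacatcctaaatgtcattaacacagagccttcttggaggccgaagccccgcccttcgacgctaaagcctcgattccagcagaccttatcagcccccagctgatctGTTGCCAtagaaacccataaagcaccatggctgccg
In the windows shown, Mtl5 held AACGG 3 times, 4922502D21Rik 2 times and 1700008K24Rik 1 time, all between 25 bases before and 17 bases after the start. A further Mtl5 window, chr19:3389178-3389407, held neither motif. Spata4 held GTTGCNA 6 bases before the start, and 1 of 3 Meig1 windows held AACGG 97 bases before its start. The Crisp2 window held neither motif. A match is a run of letters and does not show that a factor binds.

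In WT L/Z spermatocytes the 10 genes covered a wide range of FPKM, fragments scaled by the authors to transcript length and library size. Ly6k was highest at 113 and 293 FPKM in WT replicates 1 and 2, followed by Mtl5 at 30.2 and 87.0. Fabp9 had 22.6 and 62.1, Meig1 20.9 and 59.6, and 1700008K24Rik 9.88 and 24.8. The other 5 genes lay between 2.23 and 11.2 FPKM. All 10 genes were higher in WT replicate 2 than in WT replicate 1, by 1.59-fold (1700006A11Rik) to 3.66-fold (Spata4) in CPM (counts scaled to library size), with a median of 2.61. Over 12956 genes with a mean of 20 counts or more in WT the same ratio had a median of 1.06, and 9 of the 10 genes were above its 95th percentile of 1.76. Neighbours in this order therefore overlap between the WT libraries, as Fabp9 and Meig1 do with Mtl5. WT replicate 1 was also 1 of 2 L/Z libraries rich in the 45S pre-ribosomal RNA gene Rn45s (8.27% of its fragments, and 8.06% in Pld6 KO replicate 1, against 0.134% to 0.301% in the other 4). The part of this in the spread was not tested.

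**Figure D1:**
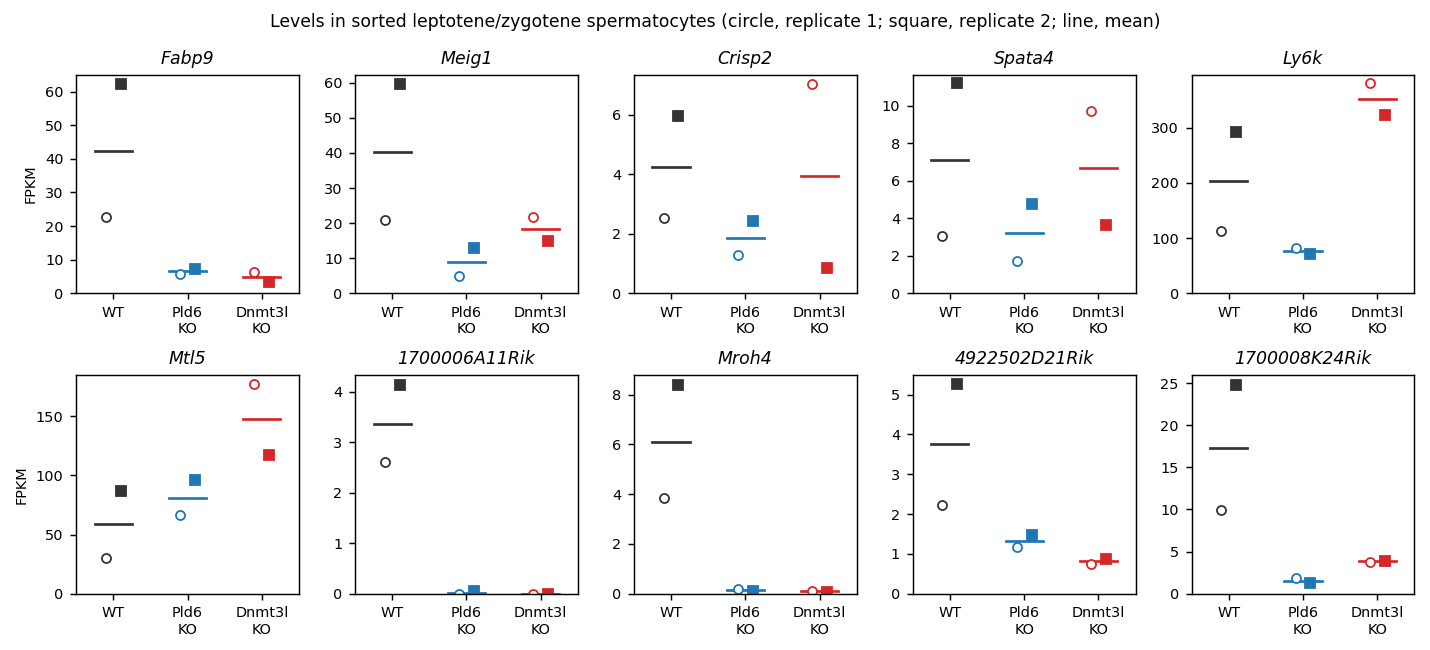
FPKM of the 10 genes (1 panel each, linear axis from 0) in the 2 libraries of WT, Pld6 KO and Dnmt3l KO L/Z spermatocytes, with circles for replicate 1, squares for replicate 2 and a line at the mean. WT replicate 2 is above WT replicate 1 in every panel, and the mutants are near 0 for 1700006A11Rik and Mroh4 but above the WT mean for Mtl5.

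2 genes were close to absent from both mutants. Mroh4 had 152 and 332 counts in the WT libraries, 4 and 4 in those of Pld6 KO, and 2 and 3 in those of Dnmt3l KO. 1700006A11Rik had 55 and 87 counts in the WT libraries, 0 and 1 in those of Pld6 KO, and no count in either library of Dnmt3l KO. Every mutant library was far below both WT libraries. Against a floor of 3 counts per library, the drop of 1700006A11Rik was at least 17.9-fold with Pld6 lost and at least 14.8-fold with Dnmt3l lost, and that of Mroh4 at least 50.5-fold with Dnmt3l lost. In Pld6 KO the fitted log2 fold change of Mroh4 was -5.58 ± 0.59 (SE).

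Fabp9, 1700008K24Rik and 4922502D21Rik were below both WT libraries in all 4 mutant libraries. Fabp9 had 119 and 326 counts in the WT libraries, 18 and 42 in those of Pld6 KO, and 14 and 21 in those of Dnmt3l KO. Its log2 fold changes were -2.65 ± 0.52 and -3.22 ± 0.55. For the non-coding RNA 1700008K24Rik, counts were 68 and 179 in the WT libraries, 7 and 8 in those of Pld6 KO, and 12 and 31 in those of Dnmt3l KO, with log2 fold changes of -3.71 ± 0.60 and -2.19 ± 0.54. The lectin gene 4922502D21Rik had 36 and 85 counts in the WT libraries, 11 and 26 in those of Pld6 KO, and 5 and 17 in those of Dnmt3l KO. Scaled to library size these were 3.05 and 7.23 CPM in the WT libraries, 1.60 and 2.05 in those of Pld6 KO, and 1.00 and 1.22 in those of Dnmt3l KO.

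Meig1, Crisp2 and Spata4 were less uniform. Meig1 had 10.6 and 30.2 CPM in the WT libraries, 2.47 and 6.62 in those of Pld6 KO, and 10.8 and 7.59 in those of Dnmt3l KO, so that only its Dnmt3l KO group overlapped WT. Crisp2 had 3.22 and 7.57 CPM in WT and 1.60 and 3.08 in Pld6 KO. In Dnmt3l KO its 2 libraries lay on either side of WT, at 8.80 and 1.07 CPM. Spata4 overlapped WT (2.63 and 9.61 CPM) in both mutants, with 1.45 and 4.10 CPM when Pld6 was lost and 8.20 and 3.15 CPM when Dnmt3l was lost. Its log2 fold change was -1.08 ± 0.69 (Pld6 KO) and -0.16 ± 0.68 (Dnmt3l KO).

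Ly6k and Mtl5 went against the description of the list. Ly6k had 65.0 and 168 CPM in the WT libraries, 46.5 and 41.0 in those of Pld6 KO, and 214 and 187 in those of Dnmt3l KO, below both WT libraries in the first mutant and above both in the second. Mtl5 was at 61.5 and 177 CPM in the WT libraries, 134 and 198 in those of Pld6 KO, and 356 and 243 in those of Dnmt3l KO. It was thus not lower in either mutant, and both Dnmt3l KO libraries were above both WT libraries. Its log2 fold change was 0.48 ± 0.41 (Pld6 KO) and 1.32 ± 0.41 (Dnmt3l KO). By position below both WT libraries, the description "lower in mutant spermatocytes" holds for neither mutant in Mtl5 and for 1 of 2 in Ly6k. By the same measure it holds for 1 of 2 in Meig1 and Crisp2, which overlapped WT in Dnmt3l KO, and for neither in Spata4.

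**Figure D2:**
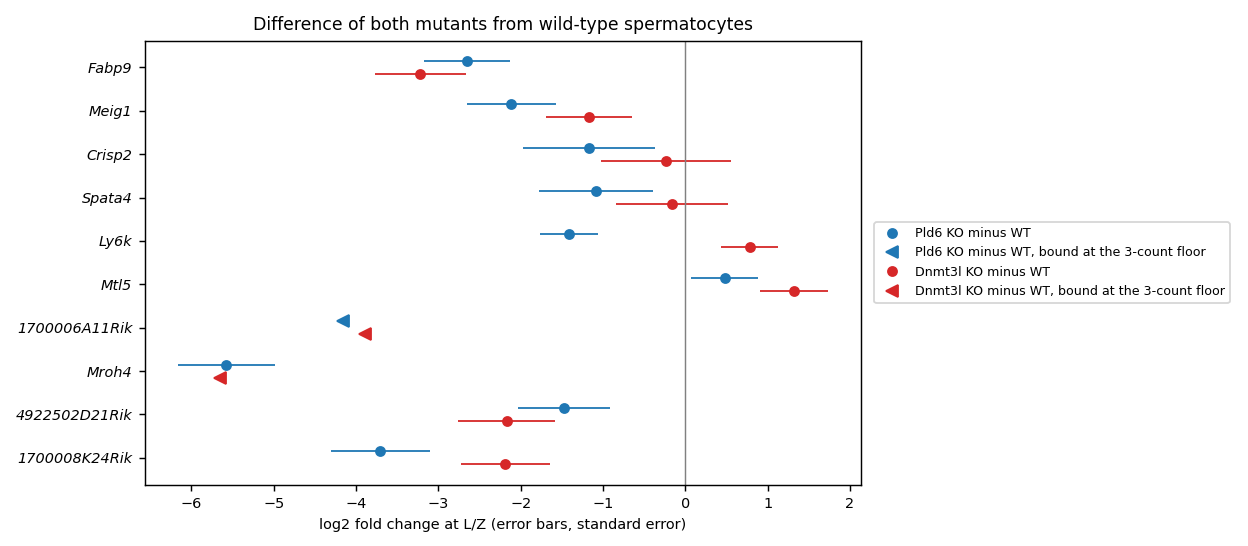
Log2 fold change at L/Z of Pld6 KO (blue) and Dnmt3l KO (red) against WT for the 10 genes, with bars for the standard error and triangles where the mutant was at the 3-count floor, so that the drop is at least as large as drawn. Most points lie left of 0, and Mtl5 (both mutants) and Ly6k (Dnmt3l KO) lie right of it.

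Called genes were those with an edgeR quasi-likelihood FDR (Benjamini-Hochberg) under 0.05 and a fold change over 2. In Pld6 KO against WT 3 of the 10 genes were called, all lower (1700006A11Rik, Mroh4 and 1700008K24Rik), where 0.0409% of 14662 genes tested were called lower. In Dnmt3l KO 5 were called lower (these 3, Fabp9 and 4922502D21Rik), where 1.58% of genes were. Groups did not overlap, with the mutant lower, for 8 genes in Pld6 KO (21.3% of all genes) and 5 in Dnmt3l KO (27.5%). The median log2 fold change of the 10 genes was -1.79 (Pld6 KO) and -1.67 (Dnmt3l KO), and that of all genes was 0.0042 and -0.037. These contrasts chose the genes and share the WT libraries, so the counts are a description and support nothing. Without WT replicate 2, or without either of the Dnmt3l KO libraries, which share the estimate of the spread, the count in Pld6 KO was 1, and without WT replicate 1 it was 6. The count in Dnmt3l KO was 0 without Dnmt3l KO replicate 1 and 2 without Dnmt3l KO replicate 2. Without WT replicate 2 it was 5, of which 2 (Mtl5 and Ly6k) were higher in the mutant.

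Within libraries alike in Rn45s the picture differed in size. Among the Rn45s-poor libraries, WT replicate 2 was 8.37-fold above Pld6 KO replicate 2 for Fabp9, and among the Rn45s-rich ones WT replicate 1 was 3.85-fold above Pld6 KO replicate 1. For Ly6k these ratios were 4.10 and 1.40, and for Meig1 4.56 and 4.28. For Mtl5 they were 0.90 and 0.46, both with Pld6 KO higher. Dnmt3l KO had no Rn45s-rich library. Against the mean of its libraries, WT replicate 2 was 12.9-fold higher for Fabp9 and 91.8-fold higher for Mroh4, and stood at 0.84 times the mutant for Ly6k and 0.59 times for Mtl5.

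The comparison of Dnmt3l KO with Pld6 KO at L/Z was not itself used to choose the genes. The genes were chosen as lower in mutant cells, though, so low values in both groups are part of the choice. Such values limit the difference between the mutants in advance, so the test is given as description. None of the 10 genes was called (0.0477% of all genes were), 2 had an unadjusted p under 0.05 (17.5% of all genes), and DESeq2 called 1, Ly6k. Ly6k, at 214 and 187 CPM in Dnmt3l KO and 46.5 and 41.0 in Pld6 KO, had a log2 difference of 2.20 ± 0.36 and an edgeR FDR of 0.0623. Of 17 other settings 9 called it, with FDR from 4.28e-07 to 0.411. The 1700008K24Rik RNA, at 2.40 and 2.22 CPM against 1.02 and 0.63, had a log2 difference of 1.52 ± 0.63 (edgeR FDR = 0.252). Both Fabp9 groups were low, with a log2 difference of -0.57 ± 0.57 (edgeR FDR = 0.633). For 1700006A11Rik, where both groups are at the floor, no fold can be given.

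Mroh4 and Ly6k lie on the same strand of chromosome 15, 160.1 kb apart. Genes between them were measured in the same libraries. Arc, which encodes an activity-regulated cytoskeletal protein, had 15.6 and 17.0 FPKM in the WT libraries, 15.3 and 16.6 in those of Pld6 KO, and 8.94 and 13.2 in those of Dnmt3l KO. Jrk had 6.33 and 6.94 FPKM in the WT libraries, 6.42 and 5.73 in those of Pld6 KO, and 5.02 and 4.38 in those of Dnmt3l KO. Neither showed the near absence of Mroh4 in both mutants or the position of Ly6k above WT in Dnmt3l KO. Both were chosen after their values were seen, as the genes of the interval with the most counts in WT.

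Other genes of the pachytene programme were taken from a list of 25 (genes known to start in or near pachytene), of which the L/Z test took in 21. In Pld6 KO against WT edgeR called none of them (0.225% of all genes were called), while 8 had an unadjusted p under 0.05 (9.17% of all genes) and DESeq2 called 1. Their median log2 fold change was -0.66. In Dnmt3l KO 3 were called lower and 3 higher (5.47% of all genes were called), with a median of 0.27. Lower were Piwil1, a PIWI protein of pachytene piRNAs (log2 fold change -2.29 ± 0.31, edgeR FDR = 0.00514), and Spag6, an axoneme protein (-3.15 ± 0.68, edgeR FDR = 0.0252). Tdrd6, a Tudor-domain protein of germ granules, was also called lower (edgeR FDR = 0.0241). Each Dnmt3l KO library held only 2 counts of Tdrd6, so against the floor of 3 its drop was at least 7.50-fold. Mybl1, the MYB factor that drives pachytene genes, was higher (2.49 ± 0.31, edgeR FDR = 0.00345). So were Brdt, a testis bromodomain protein (1.71 ± 0.42, edgeR FDR = 0.0352), and Hist1h1t, the testis linker histone (3.03 ± 0.82, edgeR FDR = 0.0478). Hist1h1t rests on few counts, 3 and 4 in the WT libraries and 19 and 21 in those of Dnmt3l KO. Mybl1 itself was at 7.85 and 12.8 FPKM in the WT libraries, 23.5 and 36.0 in those of Pld6 KO, and 69.1 and 47.2 in those of Dnmt3l KO. Between the mutants edgeR called none of the 21 (11 had an unadjusted p under 0.05, and DESeq2 called 2). Without Dnmt3l KO replicate 1 none was called in Dnmt3l KO, and without Dnmt3l KO replicate 2 or WT replicate 1 the count was 2. Between the mutants it was 2 without either of the WT libraries.

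The highest of the list in WT cells were Tex101, Ybx2, Hspa2, Clgn, Brdt and Tbpl1. Tex101, a germ cell surface protein that binds LY6K, was at 503 and 1217 FPKM in the WT libraries, 451 and 437 in those of Pld6 KO, and 1659 and 1188 in those of Dnmt3l KO, an order of groups like that of Ly6k. Hspa2, a chaperone of meiosis, was at 40.1 and 118 FPKM in the WT libraries, 45.4 and 54.0 in those of Pld6 KO, and 193 and 104 in those of Dnmt3l KO. The 25 genes summed to 739 and 1777 FPKM in the WT libraries, 698 and 790 in those of Pld6 KO, and 2397 and 1643 in those of Dnmt3l KO. Tex101 weighed most in each of these sums. Of the 21 genes tested, 17 had a fitted fold change below WT in Pld6 KO and 8 in Dnmt3l KO. The summed FPKM of 18 L/Z markers was 1625 to 2963 (WT), 1892 to 2816 (Pld6 KO) and 4874 to 4926 (Dnmt3l KO). In sorted cells, a different mix of stages and less RNA per cell cannot be told apart.

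Markers of other cells were checked in the sorted fractions. All 6 epididymis markers had 0 counts in WT. Of 12 spermatid markers 8 exceeded 3 counts in WT, and the list summed to 9.92 and 9.64 FPKM in the WT libraries, 15.2 and 18.2 in those of Pld6 KO, and 16.0 and 13.3 in those of Dnmt3l KO. Prm2, one of its defining genes, and Smcp had 0 counts in all 6 libraries, and Oaz3 was at 2.53 and 4.16 FPKM in WT and at 5.30 to 12.2 in the mutants. As a sum, the 10 spermatogonial markers were lower in the mutants without overlap, at 1149 and 1114 FPKM in the WT libraries. The Pld6 KO libraries had 834 and 912, and the Dnmt3l KO libraries 453 and 830. Uchl1 weighed most in this sum, at 598 and 617 FPKM in WT. Not every marker followed it. Etv5 was higher in both Pld6 KO libraries (17.3 and 8.11 FPKM) than in either WT library (7.69 and 5.09). Its Dnmt3l KO values lay within the WT range. The summed FPKM of 8 Sertoli markers was 219 to 336 (WT), 209 to 315 (Pld6 KO) and 59.1 to 213 (Dnmt3l KO), and that of 6 Leydig markers was 16.7 and 7.21 in WT and 1.76 to 3.90 in the mutants. Markers of cilia, which share genes with the sperm tail, summed to 53.1 and 190 FPKM (WT), 42.8 to 63.3 (Pld6 KO) and 64.2 to 94.2 (Dnmt3l KO). Their part in the results was not tested.

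At P0 the 10 genes were all but silent in 10 of 11 libraries. Together they made up 3.52 to 6.44 CPM in those libraries. In Dnmt3l KO replicate 1 they made up 188 CPM. Each of the 10 genes was highest in that library, by 8.04-fold (Mtl5) to 48.4-fold (1700006A11Rik) over the next highest of the 11 libraries. Of 12350 genes with 50 counts or more there, 55 (0.445%) were at least 4-fold above every other P0 library, among them all 10 genes. They had been chosen for this.

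**Figure D3:**
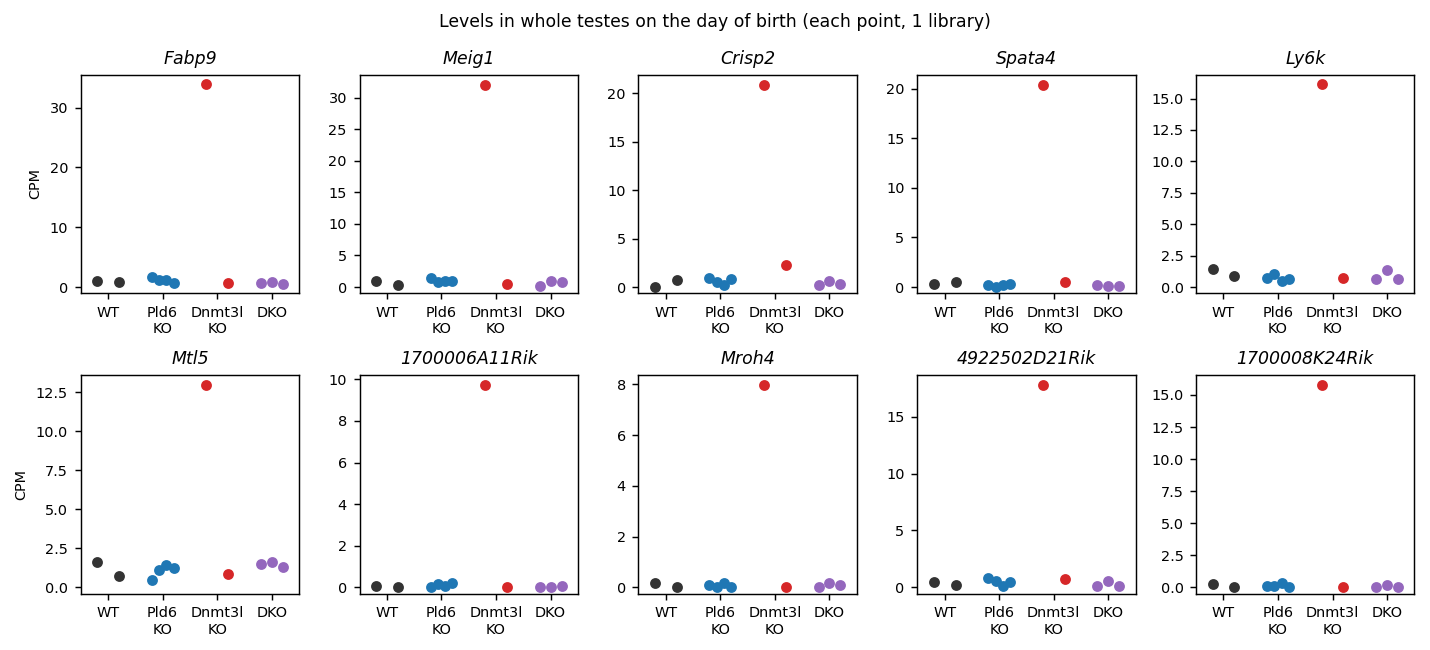
CPM of the 10 genes (1 panel each, linear axis) in 11 P0 whole-testis libraries of WT, Pld6 KO, Dnmt3l KO and DKO, with 1 point per library. In every panel the first Dnmt3l KO library stands alone at 7.98 CPM (Mroh4) or more, and the other 10 libraries are near 0.

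Fabp9 had 386 counts in the first Dnmt3l KO library, 8 in the second, 12 and 9 in WT, and 7 to 20 over the 10 other libraries. Meig1 had 366 against 6 in the other Dnmt3l KO library and at most 19 elsewhere. Crisp2 had 238 and 26 in the 2 Dnmt3l KO libraries and 0 to 26 over the 10 others. At 2.26 CPM in the second Dnmt3l KO library, Crisp2 was also above all WT, Pld6 KO and DKO libraries.

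Spata4 had 233 counts there and at most 6 elsewhere. 4922502D21Rik had 203 and at most 10, Ly6k 184 and at most 18, 1700008K24Rik 180 and at most 4, and Mtl5 148 and at most 31. 1700006A11Rik had 111 and Mroh4 91, and no other P0 library held more than 2 counts of either. The 2 genes that were close to absent in the mutant spermatocytes thus had counts in that library. The second Dnmt3l KO library held 0 counts of both. Whether the RNA came from the newborn mutant testis itself was not tested.

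The levels in that library were set beside those of WT spermatocytes, with the limit that the authors scaled the tables separately and that one is whole testis. Fabp9 was at 65.6 FPKM there and 42.4 on average in WT L/Z cells, Meig1 at 55.6 and 40.3, and 1700008K24Rik at 22.8 and 17.3. Crisp2 was at 15.4 and 4.25, 4922502D21Rik at 12.1 and 3.75, and Spata4 at 21.7 and 7.12. In the other direction Ly6k was at 24.9 and 203, Mtl5 at 6.02 and 58.6, and Mroh4 at 2.27 and 6.11. The ratio of the 2 levels ran from 0.10 (Mtl5) to 3.62 (Crisp2), so the genes did not stand in the proportions of WT L/Z spermatocytes.

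**Figure D4:**
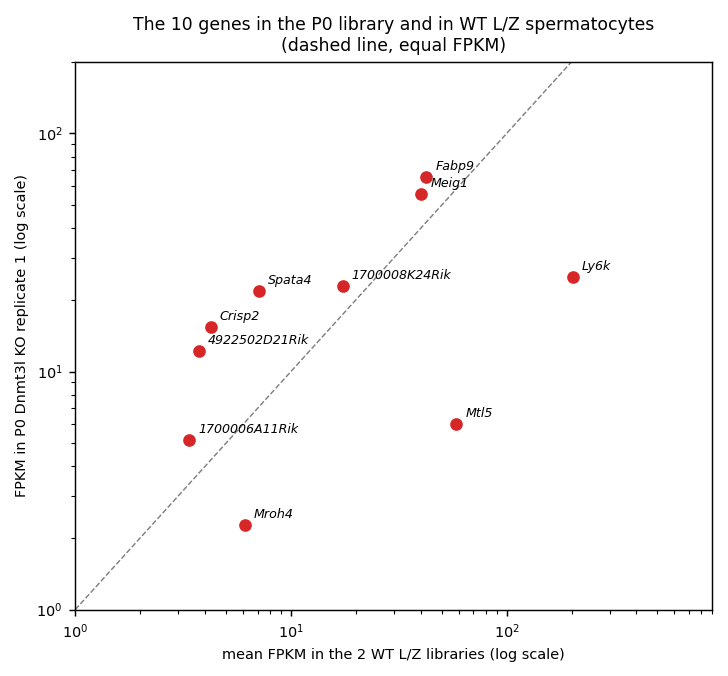
FPKM of the 10 genes in P0 Dnmt3l KO replicate 1 (y axis) against their mean FPKM in 2 WT L/Z libraries (x axis), both on a log scale, with a dashed line at equal FPKM. Of the 10 genes 7 lie above the line, and Ly6k, Mtl5 and Mroh4 lie below it.

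Most other genes of meiotic prophase that were checked were also higher in the same library. Among 21 genes of the pachytene list with 20 counts or more in it, 17 were above every other P0 library and 5 were at least 4-fold above. Of all genes with 50 counts or more, a higher minimum, 0.445% were at least 4-fold above. The share of all genes above every other library is not given here, so counts of that kind are a description. Of 17 L/Z markers, 15 were above every other P0 library and 0 were 4-fold above. Germ cell markers of earlier stages mostly were not highest there. Of 9 spermatogonial markers with 20 counts or more, 1 was above every other P0 library, and of 6 prospermatogonial markers 2 were. Sycp3, of the synaptonemal complex, was at 34.5 FPKM against at most 9.53 elsewhere, and Tex101 at 68.5 against at most 19.3. Mybl1 was not raised, at 9.93 FPKM within the range of 6.60 to 11.9 of the other libraries.

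No spermatid marker reached 20 counts there, and the list summed to 2.34 to 3.91 FPKM in Dnmt3l KO and 2.03 to 3.08 in WT. In Pld6 KO replicate 1 it was 38.9 FPKM, with Prm1 at 11.8. The 10 genes summed to 6.44 CPM there, the top of the range of 3.52 to 6.44 CPM outside Dnmt3l KO replicate 1. In the other 3 Pld6 KO libraries the spermatid list summed to 2.59 to 4.09 FPKM. Summed markers of Sertoli cells were 1406 to 1553 FPKM in Dnmt3l KO and 1826 to 1926 in WT. Epididymis markers summed to 14.8 FPKM in Dnmt3l KO replicate 1, 8.52 in replicate 2, 5.86 and 11.3 in WT and up to 17.0 in DKO, nearly all of it Defb42 (14.5 FPKM in Dnmt3l KO replicate 1), while Lcn5, Lcn8 and Crisp1 had 0 counts in both Dnmt3l KO libraries. Of the ciliated list 8 genes had 20 counts in the library and 1, Rsph1, was 4-fold above the others (43.5 FPKM against at most 6.41). In whole testis, more cells of a type and more RNA per cell cannot be told apart. These values rest on 1 library. The 10 genes summed to 6.25 CPM in the other Dnmt3l KO library. They summed to 3.52 to 6.29 CPM in the 3 DKO libraries, which also lack Dnmt3l. A property of that sample, such as RNA from other testis tissue in it, was not tested. The part of these markers in the result was not tested.

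Of the 10 genes, 5 passed the filter on low counts at P0 (Fabp9, Meig1, Crisp2, Ly6k and Mtl5). Crisp2 passed it through the Dnmt3l KO libraries. Dnmt3l KO against WT and DKO against Dnmt3l KO hold the library for which the genes were chosen, so no test of them is given (0% and 0.0755% of 15901 genes were called).

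The other comparisons at P0 do not hold that library, but the genes were chosen as abundant in it alone, so low levels in the other groups are part of the choice. The fit also takes its spread from all 11 libraries. In Pld6 KO against WT, DKO against WT and DKO against Pld6 KO edgeR called 0 of the 5 tested genes (0.00629%, 0.0126% and 0% of all genes were called). DESeq2 also called 0, and 0 had an unadjusted p under 0.05 (5.06%, 7.97% and 6.02% of all genes). In fits of only the 2 groups compared, 4, 4 and 3 of the genes passed the filter and 0 were called. Fabp9 was at 1.17 CPM on average in 4 Pld6 KO libraries, 0.734 in DKO and 0.888 in WT. Its log2 differences from WT in the fit of all 11 libraries were 0.40 ± 1.02 in Pld6 KO and -0.31 ± 1.10 in DKO. These counts do not show that the groups were alike.

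By Pearson's r over 6 L/Z and 11 P0 libraries apart, given as description, the genes most like the mean of the 10 were sought among 12944 others with 20 counts or more in WT L/Z cells. They were Adam2, a sperm membrane protein (r = 0.98 and 0.96), Pdcl2 (0.95 and 0.97), Spata33 (0.93 and 0.94), Zmynd10, which is needed to assemble ciliary dynein (0.93 and 0.90), and Ldhc, the germ cell lactate dehydrogenase (0.90 and 0.97). All P0 values rest on 1 library, and by Spearman's rho the 5 genes rank only 118, 654, 1474, 3208 and 2836. Without it r at P0 was 0.53 for Adam2 and between -0.02 and 0.08 for the other 4. Ldhc was at 54.7 FPKM in that library and at most 1.74 in the other 10. Of the 10 genes themselves, Meig1 followed the mean of the other 9 most closely at L/Z (r = 0.95, n = 6) and Mtl5 least (r = -0.12).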

How the data were processed

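Poly(A) RNA-seq tables of 6 L/Z and 11 P0 libraries were used. The authors aligned reads (single 50 bp at L/Z, paired 100 bp at P0) with TopHat2 to mm10 and quantified RefSeq genes with Cuffdiff. The deposited estimated counts are raw fragments per gene and library, and the deposited FPKM values were scaled by the authors to transcript length and library size. The tables count replicates from 0 and the labels from 1, so table replicate 0 was read as label replicate 1. That the libraries labelled biological replicates came from separate animals is not stated further.

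Estimated counts were rounded to whole numbers. Genes not listed as OK were dropped (6 at L/Z, 2 at P0, among them Rn45s at P0). The main test was edgeR 4.0.16 (R 4.3.3), with filterByExpr, TMM and quasi-likelihood F tests, all groups of a stage in 1 fit, called at FDR under 0.05 and a fold over 2. SE is derived from the F statistic. CPM uses TMM library sizes. Groups in which all libraries held 3 counts or fewer were set at a floor of 3. Tests were checked on simulated data. Alternatives used DESeq2 1.42.0, limma 3.58.1 on log2(FPKM + 1) and log2(FPKM + 0.1), other filters, a replicate block, a factor for libraries with over 1% Rn45s, and each library left out. An offset for GC content and length, and a crossed block, were added after seeing the data. Summaries used Python 3.11.15.

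The 10 genes and the gene lists were chosen with earlier results of these data known. Named genes besides the 10 were Pld6, Dnmt3l, Rn45s, the 6 pachytene-list genes highest in WT L/Z cells and any called, up to 3 per marker list, and the 5 genes most like the 10. Positions and promoter windows are from RefSeq GRCm38.p6.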

Additional observations from a re-analysis of the deposited data

Results flagged for a closer look

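Ly6k lay on opposite sides of WT in the mutants at L/Z, but neither difference from WT was called. Both Pld6 KO libraries (46.5 and 41.0 CPM) were below both WT libraries (65.0 and 168 CPM), and both Dnmt3l KO libraries (214 and 187 CPM) were above them. The log2 difference of Dnmt3l KO minus Pld6 KO was 2.2, and the test of that difference gave an edgeR FDR of 0.0623, which misses the threshold. Most of the distance of Dnmt3l KO from WT rests on WT replicate 1. Without it the log2 difference from WT was 0.25 in place of 0.78, and WT replicate 2, the Rn45s-poor one, stood at 0.84 times Dnmt3l KO. No member had a library standing apart within the 4 P0 Pld6 KO libraries, the one group large enough for that check.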

How the results depend on the processing

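The number of the 10 genes called at L/Z depended on the settings. Calls against WT were of lower genes, except that in Dnmt3l KO Mtl5 was called higher with no filter on low counts, in a fit of the 2 groups alone, with the crossed replicate block, and without WT replicate 2 or either of the Pld6 KO libraries, and Ly6k without WT replicate 2. In Pld6 KO against WT it was 3, and 5 with no filter on low counts, 1 at a mean of 50 counts or more, 6 with DESeq2, 0 in a fit of the 2 groups alone, 5 with a factor for Rn45s-rich libraries and 1 to 6 with 1 library left out. In Dnmt3l KO against WT it was 5, and 3 at a mean of 50 counts or more and 0 to 6 with 1 library left out. 4922502D21Rik lost its call there in 6 alternatives. Between the mutants it was 0, and 1 with no filter, with DESeq2, in a fit of the 2 groups alone or with the GC and length offset, and 0 to 1 with 1 library left out. The pachytene list gave, in Pld6 KO, 0 called, and 1 with no filter or DESeq2, 4 with the Rn45s factor and 0 to 1 with 1 library left out. In Dnmt3l KO it gave 6, and 3 at a mean of 50 counts or more and 0 to 7 with 1 library left out. Between the mutants it gave 0, and 2 with no filter, DESeq2 or the 2 groups alone and 0 to 2 with 1 library left out. The cause of these changes was not tested. The share of all genes called is given for the main setting only, so counts under the alternatives are a description throughout.

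At P0 the count was 0 in all 5 comparisons. In Dnmt3l KO against WT it was 1 with DESeq2 and 0 to 10 with 1 library left out. In DKO against Dnmt3l KO it was 7 with no filter, 4 with DESeq2, 1 in the 2 groups alone and 0 to 10 with 1 library left out. In both, the 10 came without Dnmt3l KO replicate 2, which leaves the library for which the genes were chosen and lets all 10 past the filter, so that count was fixed by the choice. The filter at a mean of 50 counts left none of the genes at P0. It stayed 0 in the other 3 comparisons under every alternative run.

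Replicate numbers were shared by groups, and the labels do not say that a number marks a shared batch, so they were not taken to pair the samples. Deviations of same-numbered L/Z libraries correlated at 0.485 for WT with Pld6 KO, in both of which replicate 1 is the Rn45s-rich library, and at -0.144 for WT with Dnmt3l KO. With the replicate block the L/Z counts against WT were 2 (Pld6 KO) and 5 (Dnmt3l KO), that between the mutants was 0, and all at P0 were 0. With the Dnmt3l KO numbers crossed in the replicate block they were 5, 6 and 1 for the 10 genes and 4, 9 and 6 for the pachytene list.

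Signs changed for genes near 0. Spata4 in Dnmt3l KO against WT moved from -0.16 to 0.087 with the replicate block, 0.002 with limma on log2(FPKM + 1), 0.019 on log2(FPKM + 0.1) and -0.97 to 1.06 with 1 library left out. Leaving out 1 library also spanned 0 for Spata4 in Pld6 KO (-2.07 to 0.13), Mtl5 in Pld6 KO (-0.094 to 1.44), Crisp2 in Dnmt3l KO (-2.33 to 0.70) and Crisp2 between the mutants (-1.17 to 1.87), and reached 0 for 1700006A11Rik between the mutants (-3.00 to 0), where both groups are at the floor. Where a single library is left in a group, it is assumed to vary like the other groups.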
